A study of Mus musculus with 4 samples.

Results

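The clustered protocadherins are cell-surface adhesion proteins of the cadherin superfamily, encoded side by side on mouse chromosome 18 in the subclusters alpha, beta and gamma. Members were all genes of that chromosome whose symbol begins with Pcdha, with Pcdhb and a digit, or with Pcdhg, without any minimum level, and 59 of the 22691 genes of the expression table met this rule. They comprised 15 alpha, 22 beta and 22 gamma entries. Their RNA was compared in embryonic fibroblasts of female mouse fetuses at embryonic day 13.5, in 2 libraries with intact Smchd1 (Smchd1 +/+, called WT) and 2 libraries homozygous for the MD1 allele (Smchd1 MD1/MD1, called MD1). Smchd1 encodes SmcHD1, a noncanonical SMC protein of chromatin that takes part in silencing the inactive X. All 4 libraries also carried Xist deltaA on 1 X chromosome, a mutation that came with the mother, and descended from C57BL6/J mothers and F1 fathers of JF1 and C57BL6/J, so paternal autosomal alleles could be from either strain. The study asked what SmcHD1 contributes to keeping the X chromosome silent. Total RNA levels were deposited as 1 mean FPKM (fragments counted per unit of transcript length and of library size) per group, so values of members have no spread between replicates, no test, and no known read depth.

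Each alpha and gamma gene has a large variable exon with its own promoter, which is spliced to a few constant exons that all genes of its subcluster share, while beta genes stand alone as single exons. In neurons, each cell uses a small set of the alternate promoters, chosen at random, and this gives the cell a surface identity by which it tells its own branches from those of others. The last genes of the alpha and gamma subclusters, named C-type, are regulated apart from the alternate ones. Promoter choice depends on CTCF and cohesin, which bring promoters to distant enhancers, and on DNA methylation of the promoters, set in part by DNMT3B. SmcHD1 is known to bind in these clusters and to take part in their silencing.

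In mm9, the alpha subcluster spanned 37089939 to 37347314 of chromosome 18 (257.4 kb), the beta subcluster 37424652 to 37681073 (256.4 kb) and the gamma subcluster 37821599 to 38001526 (179.9 kb), all on the plus strand. In the GENCODE annotation of GRCm38, used here for exon lengths alone, 13 alpha genes had 4 exons, 3 of them shared. The shared exons made up 48.6% to 54.9% of the transcript. Pcdha10 was not among these 13 genes, so its shared part was not computed. For the 22 gamma genes the shared part was 41.7% to 45.9%, and the 22 beta genes were single exons with no shared part. Reads from shared exons cannot be assigned to 1 gene directly, so the split among alpha genes and among gamma genes is uncertain, while the sum over a subcluster depends less on it. In 3 alpha entries (Pcdha4 with Pcdha4-g, Pcdha6-g, and Pcdha7 with Pcdha7-g) the table includes transcripts that run from an alpha exon to the end of the gamma subcluster.

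Smchd1 was at 14.7 FPKM in WT and kept 13.1% of that in MD1 (1.94 FPKM), which goes with the labels. Fibroblast markers were at 1 FPKM or more in both groups (10 of 10 genes), with a summed level of 6056 in WT and 5568 in MD1. Vim made up much of that sum (2790 and 2802 FPKM). Of the 10 genes, 6 were higher in MD1 and 4 lower, where 47.5% of all genes were higher. Fn1 (370 and 940 FPKM) was at least 2-fold higher and Col3a1 (189 and 78.7) at least 2-fold lower. With 1 added, 0.976% of all genes were higher and 1.95% lower by that much. Of 13 neuron markers, 6 were at 1 FPKM or more, and the summed level of the list was 75.3 in WT and 74.3 in MD1. This sum covers genes that differed in opposite directions. The growth cone gene Gap43 (37.6 and 10.3 FPKM) and the dendritic gene Map2 (6.44 and 2.05) were lower in MD1, and the microtubule regulator gene Stmn2 (9.62 and 24.8) and the tubulin gene Tubb3 (16.4 and 31.6) were higher. Their part in the values of the protocadherins was not tested. The synaptic gene Syn1 (2.01 and 2.88 FPKM) and the neurofilament gene Nefm (1.34 and 1.46) were above 1 FPKM in both groups. The neuronal RNA-binding protein genes Rbfox3 (0.0115 and 0.0129 FPKM) and Elavl3 (0.0126 and 0.0216) and the synaptic gene Snap25 (0.0326 and 0.0298) were near 0 in both groups. Skeletal muscle markers were lower in MD1 for 10 of 10 genes, where 52.5% of all genes were. With 1 added, 6 were at least 2-fold lower, where 1.95% of all genes were, while Ttn and Ckm were near 0 in both groups. Their sum was 166.8 in WT and 51.4 in MD1. Blood and immune markers were lower in MD1 for 8 of 10 genes and glia and neural crest markers for 7 of 10. Epithelium markers were lower for 6 of 8 and endothelium markers for 4 of 8, where 52.5% of all genes were. Krt5 and Tie1, listed at 0 in MD1, are in these counts but outside that share. The blood and immune sum was lower in MD1 (127 and 110 FPKM). The sums of glia and neural crest (14.4 and 17.8), epithelium (72.9 and 81.5) and endothelium markers (14.6 and 17.6) were higher. The part of these lists in the values below was not tested. In bulk RNA, fewer cells of a type and less RNA per cell cannot be told apart. The genotype also cannot be told apart from other differences between the cultures, among them which paternal strain's chromosome 18 each had inherited.

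Summed alpha and beta RNA was higher in MD1 and summed gamma RNA lower. The alpha genes went from nearly no RNA in WT to a low level in MD1, with a summed FPKM of 0.840 and 13.2 (15.7-fold). The beta genes, summed, had 6.64 and 9.84 FPKM, or 148.2% of the WT level. The gamma genes, which held most of the cluster's RNA in both groups, had 163.7 and 120.3 FPKM, or 73.5% of the WT level. The members together therefore had less RNA in MD1 (171.1 and 143.3 FPKM), because gamma outweighs the others.

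**Figure D1:**
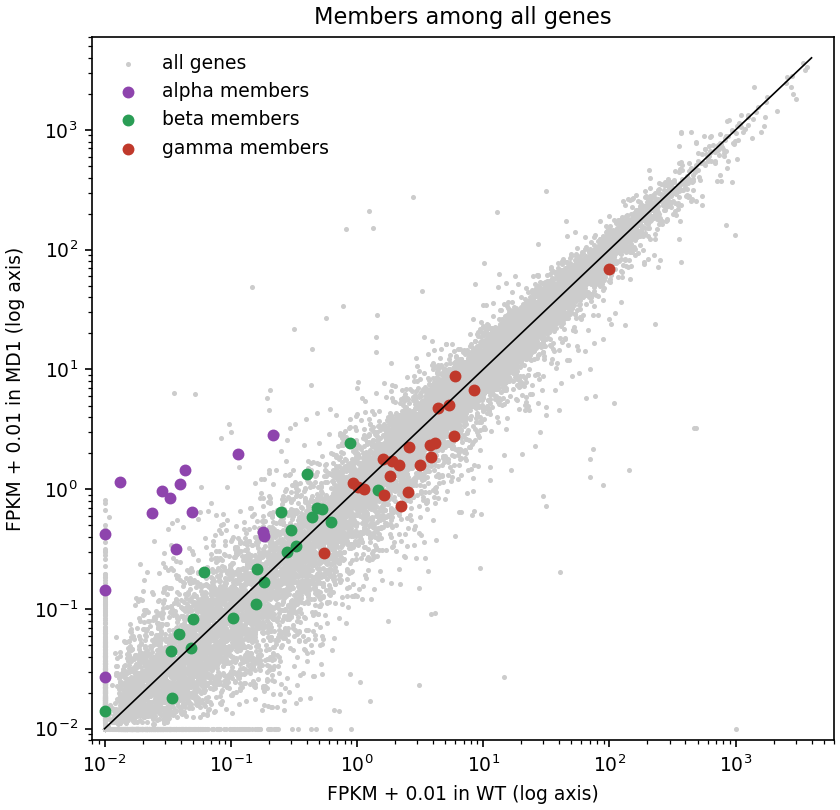
Level of every gene in MD1 (vertical) against WT (horizontal), as FPKM + 0.01 on log axes, with the line of equal level; grey points are all 22691 genes and coloured points the 59 members. Alpha members lie above the line, many toward the edge of the grey cloud but some, such as Pcdha12, closer to the line. Most beta members lie near the line, with Pcdhb2, Pcdhb22 and Pcdhb3 further above it, and most gamma members lie at or under it.

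Alpha RNA was higher in MD1 for 15 of 15 entries, whereas 47.5% of the 16810 genes above 0 in both groups were higher by any amount. On the scale of log2(FPKM + 1), which understates the change of low genes, 5 of 15 were at least 2-fold higher and 0 lower, where the higher call took 0.976% of all genes and the lower call 1.95%. With 0.1 added in place of 1, 12 of 15 were at least 2-fold higher, where 2.72% of all genes were. The median log2 ratio of the 15 entries was 0.67, against -0.0056 over all genes, and 2.66 with 0.1 added. No alpha entry reached 0.25 FPKM in WT, and 5 reached 1 FPKM in MD1. In the whole table, 26 of 9572 genes under 0.25 FPKM in WT reached 1 in MD1 (0.272%), and those 5 alpha genes were the 5 on chromosome 18. These bounds were chosen after the values were seen.

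Among alternate alpha genes, Pcdha10 was the most abundant in both groups, with 0.207 FPKM in WT and 2.81 in MD1 (13.6-fold). Its neighbour Pcdha9 had 0.103 and 1.94 FPKM (18.8-fold). Pcdha5 had 0.0330 and 1.43 FPKM, Pcdha6 0.00313 and 1.14, and Pcdha8 0.0293 and 1.103. For these 5 adhesion receptor genes, each with its own first exon, the log2 ratio lay between 1.03 (Pcdha8) and 1.66 (Pcdha10). Pcdha4 and Pcdha7, listed with their -g transcripts, came close to this range, at 0.0186 and 0.955 FPKM and at 0.0228 and 0.841. Pcdha3 had 0.0389 and 0.636 FPKM, and Pcdha1 0.0136 and 0.617. The entry Pcdha6-g was at 1.12e-08 FPKM in WT and 0.411 in MD1, so a ratio for it has no meaning beyond its direction. Leaving out the 3 entries with -g transcripts, the alpha sum was 0.799 and 10.97 FPKM (13.7-fold).

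The alternate alpha genes with the lowest levels in MD1 were Pcdha2 (2.09e-16 and 0.134 FPKM), Pcdha11 (0.0270 and 0.307) and Pcdha12 (0.174 and 0.395). Pcdha12 was the second most abundant alpha gene in WT and changed least among the alternate genes with a printable fold, at 2.28-fold. The C-type alpha genes were low in both groups. Pcdhac2, which in the brain serves the even spacing of serotonergic axons, had 0.170 and 0.428 FPKM (2.52-fold), and Pcdhac1 had 5.94e-16 and 0.0172. Summed, the 13 alternate entries had 0.670 FPKM in WT and 12.7 in MD1 (19.0-fold), and the 2 C-type entries 0.170 and 0.446 (2.62-fold). The mix of alpha RNA, as listed, was therefore different. The WT shares are parts of a sum of only 0.840 FPKM, and the split of shared exons among alpha genes is uncertain. Pcdhac2 and Pcdha12 held 20.2% and 20.7% of the alpha sum in WT but 3.25% and 3.001% in MD1. Pcdha10 held 24.6% and 21.3%, Pcdha9 12.3% and 14.7%, and Pcdha5 3.93% and 10.9%.

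**Figure D2:**
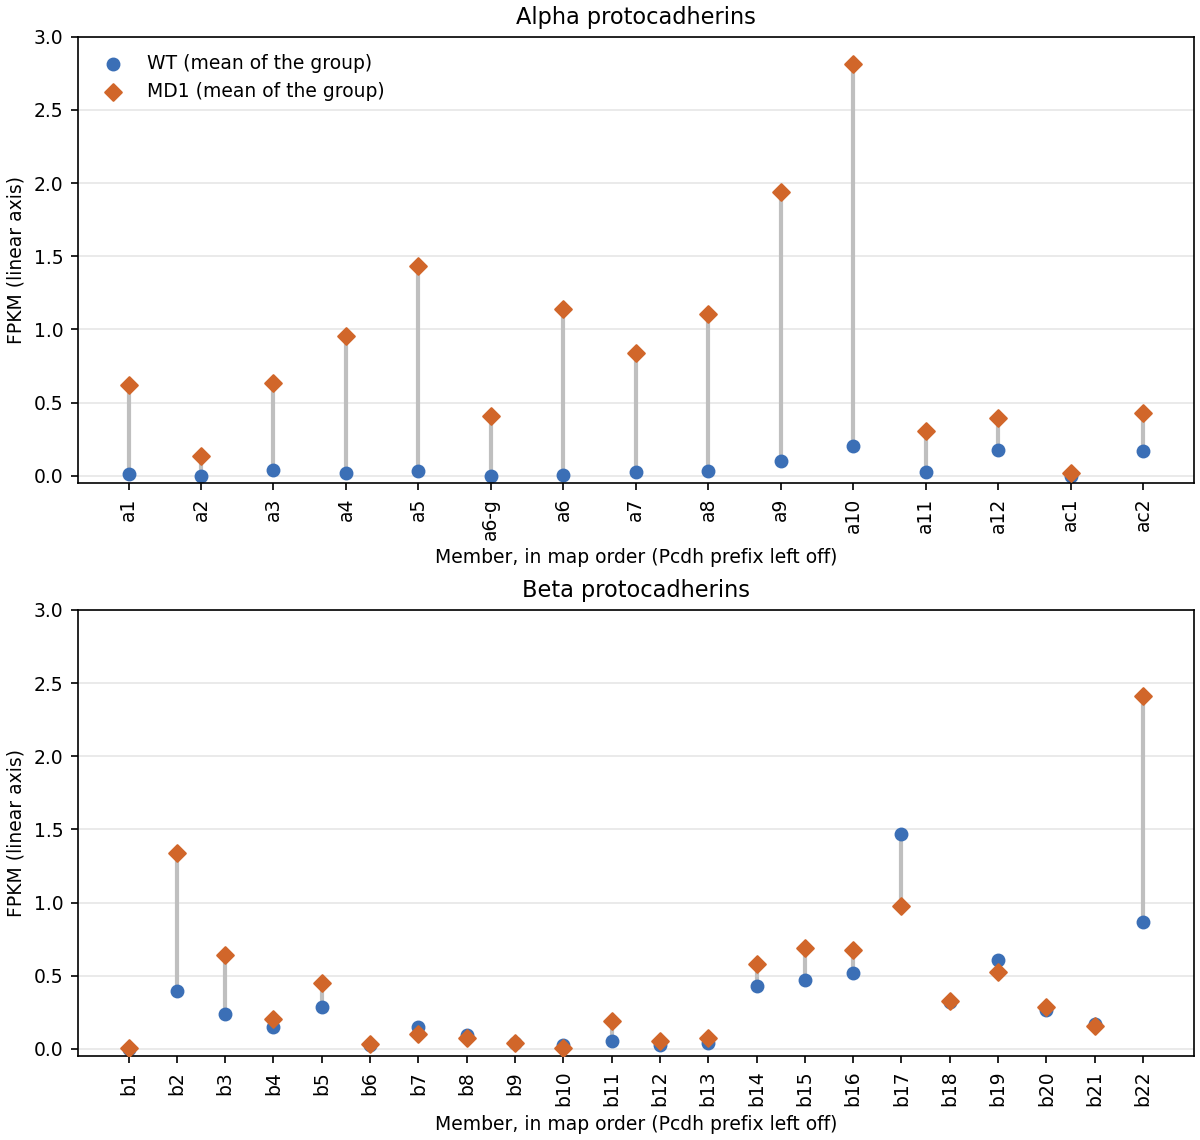
FPKM of each alpha member (top) and beta member (bottom) in map order, on linear axes, with the deposited group mean of WT as circles and of MD1 as diamonds, joined by a grey line. In alpha, MD1 lies above WT throughout and peaks at Pcdha10 (2.81); in beta the large gaps are at Pcdhb2, Pcdhb22, Pcdhb17 and Pcdhb3.

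Beta genes were mostly alike in both groups, with exceptions near both ends of the subcluster. Of 22 genes, 15 were higher in MD1, Pcdhb1 with its listed 0 in WT among them, and 7 lower, where 47.5% of all genes were higher and 52.5% lower. The median log2 ratio of the 21 genes above 0 in both groups was 0.031. None was 2-fold higher or lower with 1 added, where 0.976% of all genes were higher and 1.95% lower by that much. With 0.1 added 3 were at least 2-fold higher, where 2.72% of all genes were. These were Pcdhb2 (0.393 and 1.34 FPKM, 3.40-fold), Pcdhb22 (0.868 and 2.41, 2.78-fold) and Pcdhb3 (0.241 and 0.639, 2.65-fold). Pcdhb2 and Pcdhb3 lie at the alpha end of the expressed beta genes, and Pcdhb22 is the last gene before the gamma subcluster. Pcdhb22 became the most abundant beta gene in MD1, with 24.5% of the beta sum against 13.07% in WT. Pcdhb17, the most abundant in WT, was lower, at 1.47 and 0.977 FPKM (66.5% of WT), and its part of the sum was 22.1% in WT and 9.92% in MD1.

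The remaining beta genes showed small differences at low levels. Pcdhb4 had 0.150 and 0.206 FPKM and Pcdhb5 0.287 and 0.450, so the 4 genes from Pcdhb2 to Pcdhb5 had higher values in MD1, with a sum of 1.072 and 2.63. Next to them, Pcdhb6 to Pcdhb10 had at most 0.150 FPKM in either group. Pcdhb11 had 0.0509 and 0.194 FPKM, and Pcdhb12 and Pcdhb13 at most 0.0729. Pcdhb14, Pcdhb15 and Pcdhb16, a stretch of neighbours, had 0.429 and 0.581, 0.468 and 0.688, and 0.516 and 0.678 FPKM. Pcdhb18 to Pcdhb21 lay between 86.2% (Pcdhb19) and 108.5% (Pcdhb20) of their WT levels. Pcdhb1, which stands apart from the others at the alpha side, was listed at 0 in WT and at 0.00397 FPKM in MD1. The order of the beta genes by level was much alike in both groups (Spearman rho of 0.94 across 22 genes from the same libraries). For alpha it was less alike (0.48 across 15 entries), but no alpha entry reached 0.25 FPKM in WT, so the order there is poorly defined.

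Gamma RNA was lower in MD1 for 17 of 22 genes, where 52.5% of all genes, and 49.2% of those with a mean FPKM of 1 or more, were lower by any amount. The median log2 ratio of the 22 genes was -0.29. None was 2-fold higher or lower with 1 added, where 0.976% of all genes were higher and 1.95% lower by that much. With 0.1 added 4 of 22 were at least 2-fold lower, where 5.47% of all genes were, and 0 were at least 2-fold higher. Most of the RNA came from 1 gene, the C-type Pcdhgc3, whose product binds the Wnt pathway protein Axin1. It had 98.7 FPKM in WT and 69.5 in MD1 (70.4% of WT), which placed it above 96.6% and 94.9% of all genes. It made up 60.3% of the gamma sum in WT and 57.8% in MD1. Without it, the other 21 genes had 64.96 and 50.8 FPKM, or 78.1% of WT. The other C-type genes were lower as well, Pcdhgc5 at 5.85 and 2.75 FPKM (47.0% of WT) and Pcdhgc4, which is needed for the survival of neurons, at 0.538 and 0.285 (53.02%).

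Alternate gamma genes fall into the types A and B, which alternate along the chromosome and differ in their variable exons. The 12 A genes had 34.4 FPKM in WT and 26.9 in MD1 (78.3% of WT), and the 7 B genes 24.2 and 20.8 (86.1%). Both types held genes that were higher and genes that were lower. Of the A genes, Pcdhga8 had 2.24 and 0.713 FPKM (31.8% of WT), the lowest log2 ratio of all members at -0.92. Pcdhga10, the most abundant alternate gamma gene in WT, had 8.50 and 6.73 (79.2%). Pcdhga12 had 3.13 and 1.58 (50.6%) and Pcdhga11 4.14 and 2.42 (58.6%). The B genes spanned a wider range of log2 ratios (-0.87 to 0.48) than the A genes (-0.92 to 0.14). Pcdhgb7 had 2.52 and 0.930 FPKM (36.9% of WT) and Pcdhgb6 3.86 and 1.86 (48.2%), whereas Pcdhgb4 had 5.99 and 8.73 (145.8%). Pcdhgb4 was the gamma gene with the highest ratio (log2 ratio 0.48) and took the second place in MD1 after Pcdhgc3.

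The gamma difference varied along the map. From Pcdhga1 to Pcdhgb4, the first 10 genes on the beta side, 5 were higher and 5 lower in MD1, and their sum was 26.9 and 29.01 FPKM (107.7% of WT). From Pcdhga8 to Pcdhga12, the next 9 genes, 9 of 9 were lower, where 52.5% of all genes were. Their sum was 31.6 and 18.7 FPKM (59.2%). That boundary was chosen after the values were seen. Split in the middle of the map instead, the first 11 genes had a median log2 ratio of -0.07 and 101.8% of the WT sum, and the last 11 had -0.53 and 67.3%, with 11 of 11 lower. Across the 22 genes the ratio declined with map order (Spearman rho -0.67, Pearson r -0.64), and across the 19 genes without C-types alike (-0.70 and -0.65). These genes share libraries and exons, so the coefficients are a description.

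Within the first stretch, Pcdhgb4 and Pcdhga3 differed most and the other genes lay between 86.6% and 120.8% of their WT levels. Pcdhgb2 had 5.34 and 5.04 FPKM, Pcdhga7 4.35 and 4.79, Pcdhga5 2.57 and 2.22 and Pcdhga2 1.90 and 1.71. Pcdhgb1 had 1.015 and 1.033, Pcdhga4 1.59 and 1.79, Pcdhga1 0.918 and 1.11, and Pcdhga6 1.13 and 1.002. Pcdhga3 was the lowest of them relative to WT, at 2.14 and 1.58 FPKM (74.0%). The members of the second stretch not yet named were Pcdhgb5 (3.79 and 2.31 FPKM, 60.9% of WT), Pcdhga9 (1.81 and 1.28, 70.7%) and Pcdhgb8 (1.64 and 0.889, 54.3%). The step between Pcdhgb4 at 145.8% and its neighbour Pcdhga8 at 31.8% was thus the sharpest between adjacent gamma genes.

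**Figure D3:**
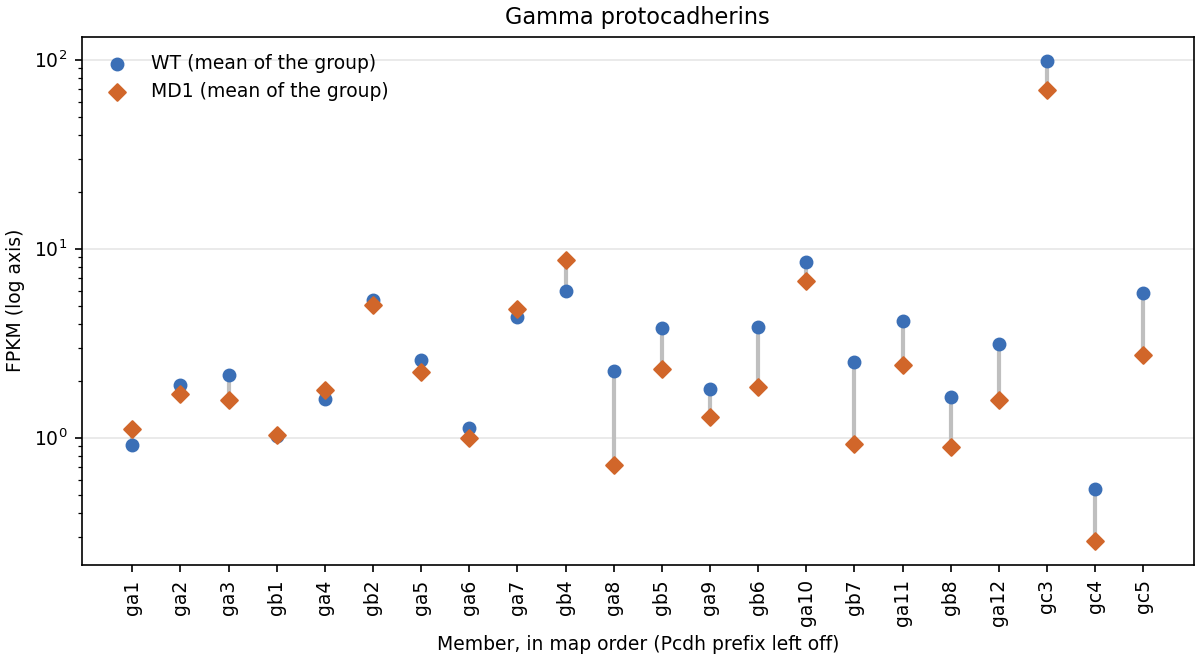
FPKM of each gamma member in map order on a log axis, with the deposited group mean of WT as circles and of MD1 as diamonds, joined by a grey line. Up to Pcdhgb4 the pairs lie close together, with either group higher; from Pcdhga8 on WT is higher in each pair, and Pcdhgc3 stands far above the rest in both groups.

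In alpha and beta the ratio had little relation to map order (Spearman rho -0.19 across 15 entries and -0.20 across 21 genes). In WT the alpha level was higher toward the constant exons, with a sum of 0.107 FPKM in the first 7 entries and 0.733 in the last 8. In MD1 these sums were 5.33 and 7.85 FPKM. The first part of the alpha subcluster was thus nearly without RNA in WT and 49.7-fold higher in MD1, against 10.7-fold for the second part, but the WT values behind the first fold are close to 0. Among the first 11 beta genes the sum was 1.45 and 3.09 FPKM (212.3% of WT), and among the last 11 it was 5.19 and 6.76 (130.2%).

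**Figure D4:**
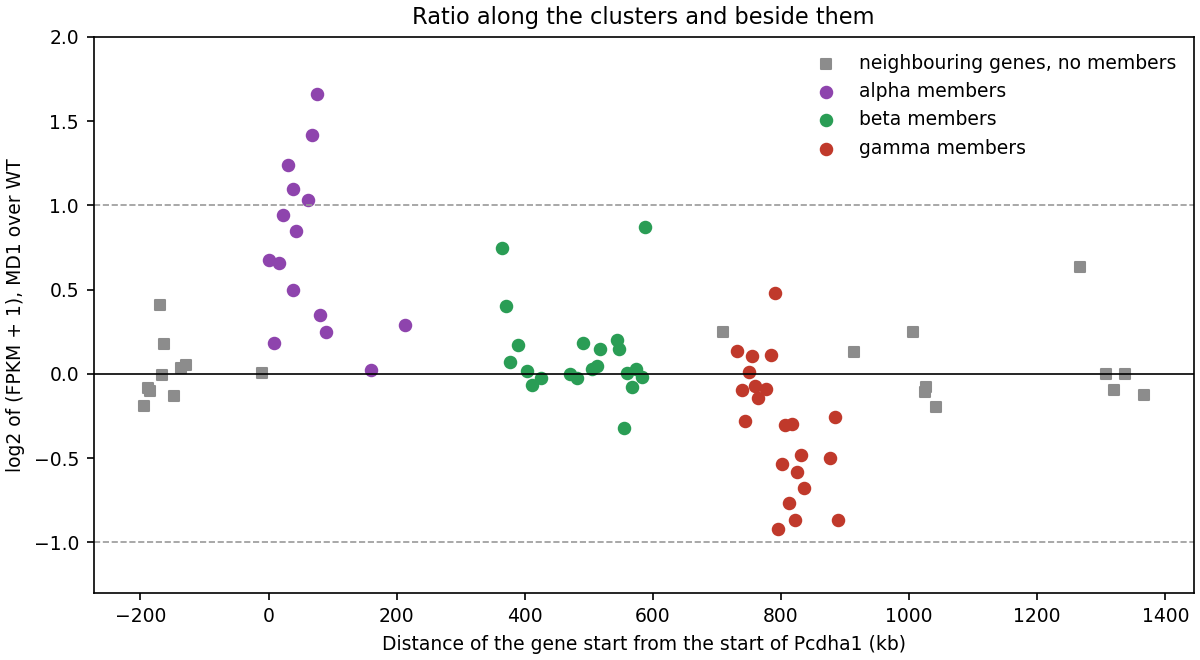
Log2 ratio of (FPKM + 1), MD1 over WT, against the distance of each gene's start from the start of Pcdha1 in kb, for alpha, beta and gamma members and for neighbouring genes (grey squares); dashed lines mark 2-fold. Alpha members lie above 0, gamma members range from 0.48 to -0.92 and tend downward along their subcluster, and 19 of the 20 flanking genes lie between -0.20 and 0.41.

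Genes beside the clusters had similar levels in both groups. Among the 10 nearest genes on each side, 8 were higher and 12 lower in MD1, where 52.5% of all genes were lower. The median log2 ratio was -0.0051. With 1 added, 0 of 20 were 2-fold higher or lower, where 0.976% of all genes were higher and 1.95% lower by that much. With 0.1 added it was again 0 of 20, where the shares of all genes were 2.72% and 5.47%. At such shares few calls could be seen among 20 genes. On the alpha side, Hars, the histidyl-tRNA synthetase gene, had 65.3 and 74.1 FPKM, Zmat2 29.3 and 30.04, and Gm6756, which lies between them and Pcdha1, 0.00731 and 0.00888. On the gamma side, Diap1, a formin gene whose end lies next to the gamma constant exons, had 13.4 and 14.7 FPKM, and the histone deacetylase gene Hdac3 37.99 and 45.2. Of the 20 genes the non-clustered protocadherin gene Pcdh1 differed most, at 2.19 and 3.95 FPKM (log2 ratio 0.64). Taf7, a gene of a TFIID subunit that lies between the beta and gamma subclusters on the opposite strand, had 1.53 and 1.997 FPKM. Slc25a2 beside it was listed at 0 in WT and at 0.0264 in MD1.

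**Figure D5:**
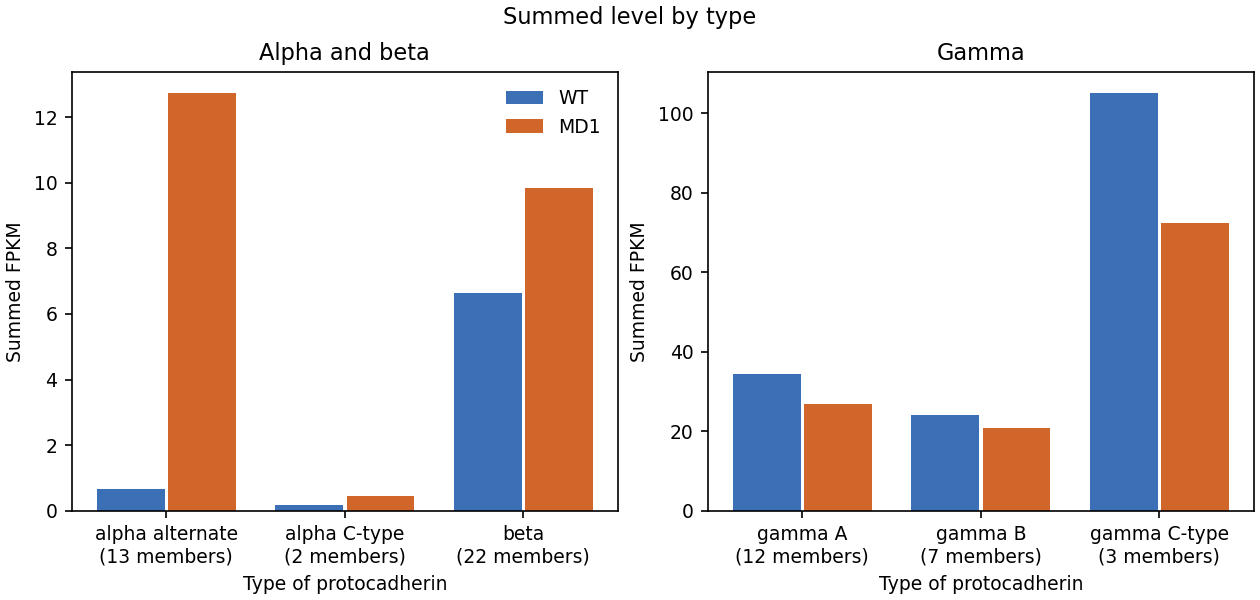
Summed FPKM of the members of each type in WT and MD1, as bars from 0 on separate linear axes for alpha and beta (left) and gamma (right). The alternate alpha genes go from 0.670 to 12.7, while the 3 gamma C-type genes go from 105.1 to 72.5.

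Non-clustered protocadherins, which do not share exons with the clusters and of which Pcdh1 and Pcdh12 are among the flanking genes, were lower in MD1 for 8 of 12 genes and higher for 4, where 52.5% of all genes were lower. Their median log2 ratio was -0.084. With 1 added 0 of 12 were at least 2-fold different, where 0.976% of all genes were higher and 1.95% lower by that much. With 0.1 added 3 were at least 2-fold lower, where 5.47% of all genes were: Pcdh10 (1.64 and 0.755 FPKM), Pcdh17 (0.970 and 0.399) and Pcdh20 (1.19 and 0.441). Of 29 factors of promoter choice, 22 were higher and 7 lower, where 47.5% of all genes were higher, with a median log2 ratio of 0.22, against -0.0056 over all genes. Smchd1 was the single factor at least 2-fold different, where 1.95% of all genes were at least 2-fold lower with 1 added and 0.976% higher. Ctcf had 20.9 and 26.2 FPKM, and the cohesin subunit gene Rad21 55.5 and 70.7. The X-linked cohesin genes Smc1a (34.9 and 64.8) and Stag2 (23.6 and 40.6), named after their values were seen, were higher too. What their higher levels reflect, on the X or otherwise, was not tested. The DNA methylation genes Uhrf1 (16.0 and 29.6) and Dnmt1 (25.7 and 43.4) were higher to a similar extent, while Dnmt3a (5.87 and 4.78) was lower. Dnmt3b, whose enzyme methylates protocadherin promoters, was low in both groups, at 0.412 and 0.616 FPKM. Of 14 genes for adhesion and signalling partners of protocadherins, 5 were higher and 9 lower (median -0.11), where 52.5% of all genes were lower. The receptor tyrosine kinase gene Ret, at 7.54 and 1.44 FPKM, was the one at least 2-fold different. With 1 added, 1.95% of all genes were at least 2-fold lower and 0.976% higher.

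Pcdh19, a non-clustered protocadherin gene on X, had values for each library, as allele-specific reads of the paternal JF1 allele. In WT these were 4 of 2882 reads (0.139%, Wilson 95% interval 0.0540% to 0.356%) and 1 of 1823 (0.0549%, 0.00968% to 0.310%). In MD1 they were 105 of 1747 (6.01%, 4.99% to 7.22%) and 254 of 2507 (10.1%, 9.01% to 11.4%). Both MD1 shares lay above both WT shares, but how many other X-linked genes did so was not counted here. The WT mean was 0.0968% ± 0.0594 (SD, n = 2) and the MD1 mean 8.07% ± 2.91 (SD, n = 2). An exact permutation test, two-sided, had p = 0.33, which is as low as a design of 2 against 2 can go. Its total RNA was 13.1 FPKM in WT and 10.2 in MD1. The intervals cover counting error only.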

How the data were processed

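Polyadenylated RNA of 4 fibroblast libraries was sequenced with a stranded kit, per the labels' protocols. The authors deposited 1 mean FPKM per gene and group. For X-linked genes they also deposited allele-specific reads per library as counts and the JF1 share of these as a fraction. The submitters' processing notes name mm9, Cufflinks 2.2.1 and Cuffdiff, without a role or order; aligner and annotation: not given in the sources used here. X-linked allele-specific reads totalled 521768 to 806626 per library. Table starts were counted from 0 and are printed 1-based.

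The ratio was log2 of (FPKM + 1), MD1 over WT, for genes above 0 in both groups; folds without a pseudocount are printed for single genes at 0.1 FPKM or more in both groups, and for sums. FPKM were summed over members as deposited. With 1 mean per group no test across genes could be made. JF1 counts were recovered as share times reads. The exact permutation test enumerated all assignments of the group labels. The labels do not say whether replicates were separate cultures, so p-values measure only the spread between these libraries. Alternatives were a pseudocount of 0.1, a mean FPKM of 1 or more, quantile normalization, leaving out the most abundant member, and leaving out each library for Pcdh19. Named genes were members at 1 FPKM or more in either group, plus the extremes of each type, Smchd1, and list genes at least 2-fold different, with Ctcf and Rad21; other members are given to account for all. Members and lists were chosen with earlier results of these data known. Ratios were tested on simulated data. Sequences of members were not used here. Computations used Python 3.11.15, pandas 2.3.3 and SciPy 1.17.1; exon lengths came from GENCODE M21.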

Additional observations from a re-analysis of the deposited data

Results flagged for a closer look

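Pcdh11x, the other protocadherin gene on X with allele-specific reads, lay outside the comparison planned for Pcdh19 and showed paternal reads in MD1 that its WT libraries lacked. JF1 reads were 2 of 48 and 3 of 52 in the MD1 libraries, or 5.0% of the 100 reads together (Wilson 95% interval 2.15% to 11.2%). In WT they were 0 of 99 and 0 of 35, and 0 of 134 reads together allow a share of up to 2.24% (Wilson upper limit 2.79%). Both MD1 libraries had paternal reads (4.17% and 5.77%) and neither WT library did. The 35 reads of WT replicate 2 leave a Wilson upper limit of 9.89%, above both MD1 shares, so that library alone could not show a difference. The difference was not tested, and it rests on 5 reads.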

How the results depend on the processing

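The summed levels kept their direction under each alternative run, for alpha, beta and gamma. The alpha median log2 ratio of 0.67 was 2.66 with a pseudocount of 0.1 and 1.54 among the 2 entries with a mean FPKM of 1 or more. At least 2-fold higher were 5 alpha entries, 12 with a pseudocount of 0.1 and 2 with that filter. Those 2, Pcdha9 and Pcdha10, pass the filter only through their level in MD1, so the filtered values are no check of the alpha difference. In beta the filter kept only Pcdhb17 and Pcdhb22, and Pcdhb22 (0.868 FPKM in WT, 2.41 in MD1) passed only through MD1. The filtered beta values are thus no check of the beta difference either. With a pseudocount of 0.1, 3 beta genes were at least 2-fold higher and 4 gamma genes at least 2-fold lower, against 0 of each with 1. These shifts follow from the construction of the scale and from fewer genes. With quantile normalization Pcdhga6 turned from -0.088 to 0.0029 and the median of the flanking genes from -0.0051 to 0.0021, both near 0. The coefficient of ratio with map order was -0.34 for alpha with a pseudocount of 0.1 and -0.084 for beta with quantile normalization. The other 30 named members kept their direction. Among named members, 9 moved by over 1.5 times with a pseudocount of 0.1, in each case further from 0. For Pcdh19 the difference of 7.97 points was 5.91 to 10.03 with 1 library left out. Replicate numbers are shared between groups, but no label says what they pair. Differences between replicates 1 and 2 in reads of 406 X genes correlated between the groups (Pearson r 0.36), and with the replicate block the difference was again 7.97 points (exact sign test p = 0.50). For the FPKM values no paired analysis was possible because they have 1 mean per group, and no library could be left out. Without depth for FPKM, levels near 0 in WT have no floor.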
